A study of Mus musculus with 16 samples.

Results

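The genes described here encode the matrix metalloproteinases (MMPs), their tissue inhibitors (TIMPs), the secreted ADAMTS proteases and the ADAMTS-like proteins. Members were all probe sets that the platform annotation assigns to a single gene named Mmp, Timp, Adamts or Adamtsl plus its number. The rule gave 78 of the 45037 probe sets tested and 42 of the 18193 genes with a probe set. There were 18 Mmp genes with 29 probe sets, 4 Timp genes with 13, 15 Adamts genes with 28 and 5 Adamtsl genes with 8.

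MMPs are zinc proteases made as inactive proforms that cleave collagens, elastin and other matrix proteins outside the cell. TIMPs bind the active site of MMPs and block it, and Timp3 also blocks several ADAMTS proteases. ADAMTS proteases cleave the proteoglycans aggrecan and versican, trim procollagens or act on microfibrils, while ADAMTS-like proteins share their ancillary domains but lack the protease domain. In the aortic wall and the valves these enzymes turn over elastic fibres, collagen and versican-rich matrix.

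The arrays held RNA of 2 tissues of mice aged 30 days, the ascending aorta and the aortic valve. The valve pieces comprised the root and annulus as well as the cusps. Mice had either 2 intact alleles of the elastin gene (Eln+/+) or 1 (Eln+/-). With 2 genotypes in 2 tissues there were 4 groups, named here by tissue and genotype, of 4 Affymetrix arrays each. Every array held amplified RNA of its own specimen without pooling, and the labels give neither strain nor sex. The deposited values are linear ratios of a probe set's signal on 1 array to, in most probe sets, its median over the 16 arrays. They were analysed on the log2 scale, so 0 is that median and 1 is a doubling. Such ratios keep no signal level, and levels of different genes were therefore not compared.

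The targeted gene was checked first. For the Eln probe set with the highest SD, Eln+/- minus Eln+/+ came to -0.42 for aorta and -1.27 for valve, with an exact two-sided permutation p of 0.0571 in each, where 0.0286 is the smallest p possible. The other Eln probe set gave -0.22 for aorta (permutation p = 0.0286) and -0.61 for valve (permutation p = 0.143). By limma, the linear model used below, the first had an adjusted p of 0.900 in aorta and 0.395 in valve. Array medians of the ratio ranged from 0.957 to 1.01. Xist exceeded the Y-linked genes in 4 of 4 aorta and 4 of 4 valve arrays of Eln+/- mice, against 1 of 4 in each Eln+/+ group, so that genotype and this sex-linked signal can mostly not be told apart. The valve pieces carried more heart muscle RNA: the mean of 16 cardiac muscle markers was -2.58 and -2.61 in the aorta groups, 0.91 in the Eln+/+ valve and 1.78 in the Eln+/- valve. The mean of 12 smooth muscle markers was 0.26 and 0.042 in the aorta of Eln+/+ and Eln+/- mice, and -0.20 and -0.92 in their valves. The 7 measured T cell and thymocyte markers set 2 arrays apart, aorta Eln+/- replicates 2 and 4, with means of 2.13 and 1.29 against -0.27 to 0.27 on the other 14 arrays. Replicate 2 also had a macrophage mean of 1.01 and a smooth muscle mean of -0.79. In whole tissue pieces, fewer cells of a type and less RNA per cell cannot be told apart.

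A run of 10 neighbouring Mmp genes on mouse chromosome 9 holds Mmp3, the member with the largest difference between valve and aorta of Eln+/+ mice, and 8 of its 9 measured genes share a short sequence before their start. The letters TGANTCA are a loose form of the binding motif of AP-1 (a Fos and Jun transcription factor), with any base at N. They were searched on both strands from 250 bases before to 50 bases after each RefSeq start. They stood in 8 of the 30 windows of members (26.7%) and in 7.81% of all 32851 windows. Windows were found for 27 of the 42 members, and all 8 with the letters came from this run. The stretches are given 5′ to 3′ on the gene's strand in GRCm38.p6, with these letters in capitals, to show how closely the copies resemble each other. The base at N is A in Mmp20 and G or C in the others.
Mmp3 (chr9:7445759-7445799, plus strand): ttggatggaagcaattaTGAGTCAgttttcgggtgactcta
Mmp10 (chr9:7502262-7502302, plus strand): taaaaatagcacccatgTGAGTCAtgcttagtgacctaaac
Mmp12 (chr9:7347313-7347353, plus strand): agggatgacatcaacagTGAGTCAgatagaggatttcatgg
Mmp13 (chr9:7272462-7272502, plus strand): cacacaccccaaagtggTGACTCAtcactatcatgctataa
Mmp1a (chr9:7464051-7464091, plus strand): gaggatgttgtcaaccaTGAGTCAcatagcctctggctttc
Mmp1b (chr9:7388096-7388136, minus strand): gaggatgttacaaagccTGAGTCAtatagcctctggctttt
Mmp7 (chr9:7692010-7692050, plus strand): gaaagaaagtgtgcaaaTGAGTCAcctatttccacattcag
Mmp20 (chr9:7628119-7628159, plus strand): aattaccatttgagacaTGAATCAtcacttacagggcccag

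The letters began 46 bases before the start in Mmp3, 44 in Mmp12, 35 in Mmp13, 63 in Mmp10 and Mmp7, 73 in Mmp1a, 93 in Mmp1b and 95 in Mmp20. The genes with these letters did not all share a tissue difference. Of the 9 measured genes of the run, 1 (Mmp3) passed the test between valve and aorta of Eln+/+ mice, against 0.946% of all probe sets. Mmp3 was known to differ when the run was described, so neither this count nor the next is a test of the run. With Mmp12 and Mmp13, 3 had an unadjusted p under 0.05, against 11.8% of all. The differences in Eln+/+ were 1.69 for Mmp3, 0.96 for Mmp12 and 0.66 for Mmp13, against -0.09 for Mmp10, -0.03 for Mmp7, 0.06 for Mmp20, -0.18 for Mmp1a and -0.07 for Mmp1b. The ETS motif AGGAAG stood in 43.3% of the members' windows and 35.4% of all windows, and the CArG box of serum response factor in 0% and 1.63%.

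**Figure D1:**
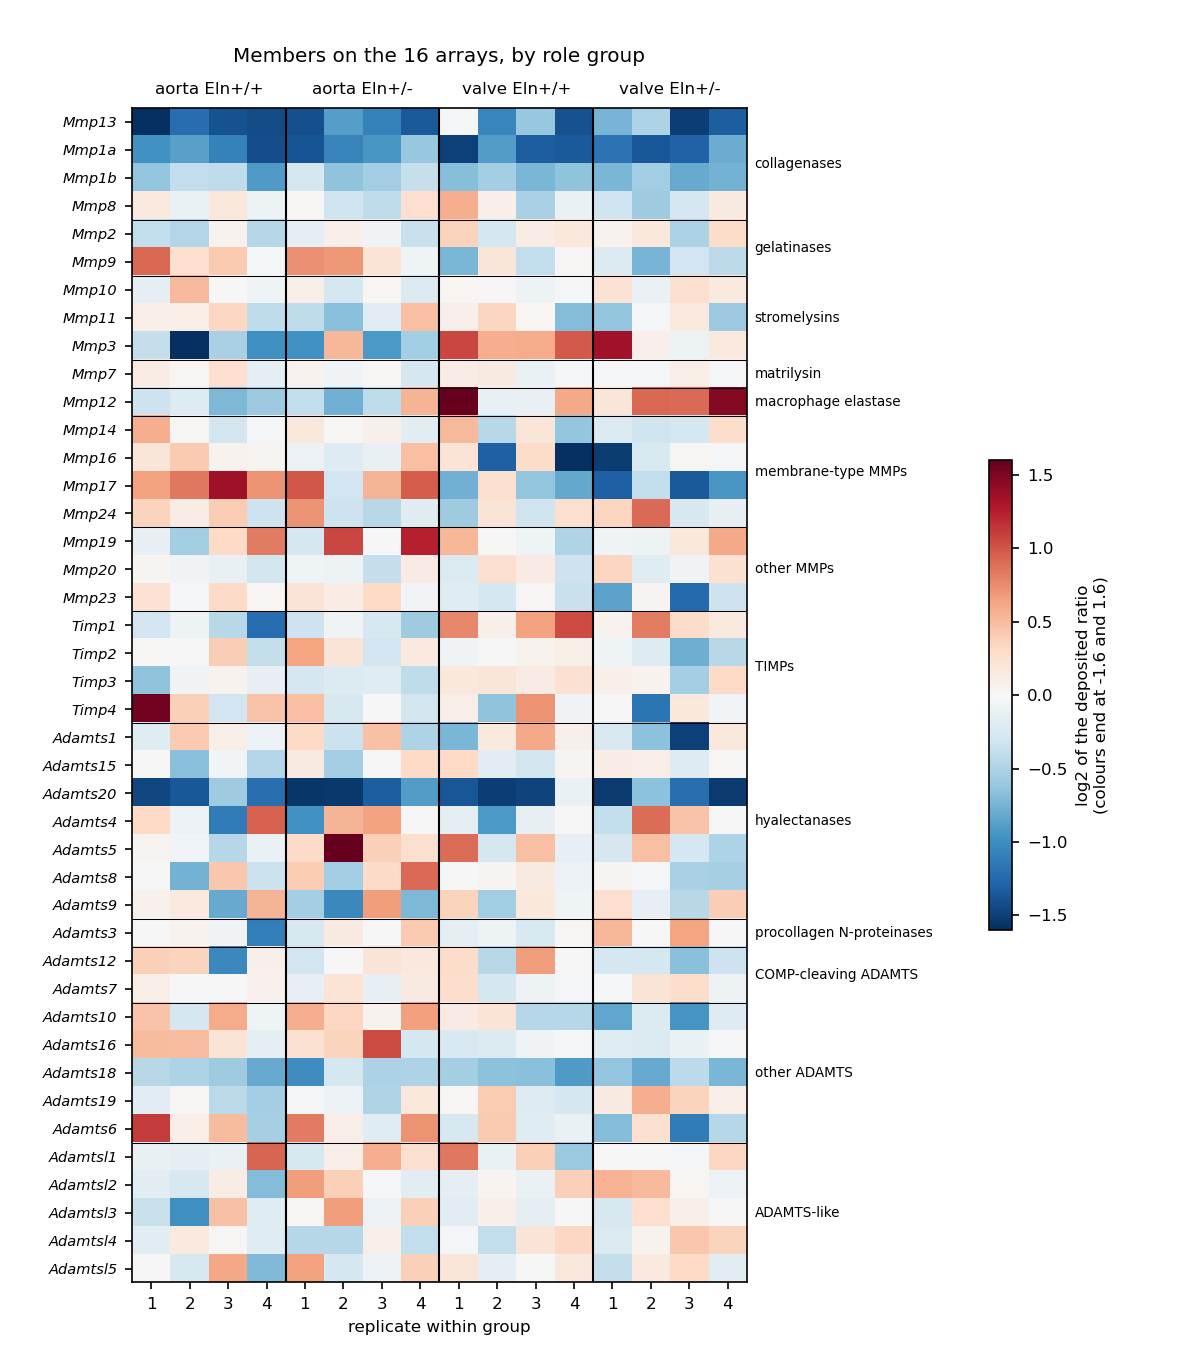
Log2 of the deposited ratio of the 42 members on the 16 arrays, 1 row per gene (its probe set of highest SD) grouped by role and 1 column per array, red above 0 and blue below, with the colours ending at the limits that the scale bar gives. Mmp3, Timp1 and Mmp12 are redder in the valve columns and Mmp17 bluer, while most other rows show no block that follows tissue or genotype.

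Comparing valve with aorta asked which proteases and inhibitors differ between the 2 tissues in mice of the same genotype. In Eln+/+ mice 3 of the 78 member probe sets (3.85%) passed the limma test at an adjusted p under 0.05 (Benjamini-Hochberg over all probe sets), against 0.946% of all probe sets. Mmp3 and Timp1 were higher in the valve, where 0.848% of all probe sets were, and Mmp17 was lower, as were 0.0977%. In Eln+/- mice 4 of 78 (5.13%) passed, against 5.81% of all, a share near the background. All 4 were lower in the valve, as were 2.54% of all probe sets, and 0 were higher, against 3.27%: 1 of Mmp17, both of Adamts10 and 1 of the 2 of Mmp23. The other 39 genes in Eln+/+ and 39 in Eln+/- had no probe set past the threshold. At an unadjusted p under 0.05 there were 18 member probe sets (23.1%) in Eln+/+, against 11.8% of all, and 21 (26.9%) in Eln+/-, against 19% of all.

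Mmp3, or stromelysin 1, cleaves many matrix proteins and activates other proMMPs. In Eln+/+ mice its log2 values (probe set 1418945_at) were -0.38, -1.68, -0.52 and -0.98 on the 4 aorta arrays and 1.06, 0.58, 0.59 and 0.98 on the 4 valve arrays. Every valve array lay above every aorta array. The difference was 1.69 ± 0.37 (SE), a 3.23-fold higher ratio, with a limma adjusted p of 0.0395. In Eln+/- mice the aorta arrays read -0.96, 0.53, -0.91 and -0.54 and the valve arrays 1.35, 0.08, -0.09 and 0.16. Here the groups overlapped, since aorta replicate 2 lay above 3 of the valve arrays, and the difference of 0.85 ± 0.37 did not pass (limma adjusted p = 0.218). The change of the tissue difference with genotype, -0.84 ± 0.52, did not pass either (limma adjusted p = 0.704).

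Timp1, a secreted inhibitor of most soluble MMPs, was likewise higher in the valve. On the Eln+/+ arrays its log2 values (1460227_at) were -0.31, -0.08, -0.44 and -1.22 in the aorta and 0.77, 0.08, 0.65 and 1.04 in the valve. The tissues did not overlap, and the lowest valve array, replicate 2, was close to the highest aorta array. Timp1 rose by 1.15 ± 0.25 (SE), or 2.21-fold, from aorta to valve (limma adjusted p = 0.0398). On the Eln+/- arrays it read -0.34, -0.06, -0.25 and -0.57 in the aorta and 0.06, 0.81, 0.30 and 0.16 in the valve. All 4 valve values again lay above all aorta values, but the difference of 0.63 ± 0.25 did not pass (limma adjusted p = 0.169).

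Both calls in Eln+/+ depended on single arrays. Leaving out any 1 of the 8 Eln+/+ arrays took the limma adjusted p of Mmp3 past 0.05 (0.0525 without aorta replicate 1 to 0.134 without valve replicate 1), with differences between 1.43 and 1.86, and so did leaving out valve Eln+/- replicates 2 or 4, which enter the shared estimate of the spread. For Timp1 this happened without aorta replicates 1, 3 or 4 or valve replicates 1, 3 or 4 (0.0734 to 0.145), with differences between 0.91 and 1.21, and also without aorta Eln+/- replicates 1 or 3 or valve Eln+/- replicates 1 or 4. The macrophage marker mean moved the same way, at -0.40 and -0.28 in the aorta groups and 0.30 and 0.29 in the valve groups, with 0 of its 10 genes past the threshold. The 10 fibroblast markers averaged -0.14 in the Eln+/+ aorta and 0.18 in the Eln+/+ valve, where 2 passed as higher and 1 as lower. In Eln+/- they averaged -0.09 in the aorta and -0.12 in the valve. Means of cardiac muscle, endothelium, cartilage-type, mast cell, melanocyte and Schwann cell markers were higher in both valve groups than in both aorta groups. Those of smooth muscle, neutrophil, T cell, adipocyte and erythroid markers were lower in both. The part of any cell type in these differences was not tested.

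Mmp12, the macrophage elastase, degrades elastin. Its log2 values (1449153_at) on the Eln+/+ arrays were -0.33, -0.20, -0.72 and -0.58 in the aorta and 1.64, -0.12, -0.12 and 0.61 in the valve. In Eln+/- they were -0.39, -0.77, -0.41 and 0.54 in the aorta and 0.19, 0.91, 0.90 and 1.47 in the valve. Valve values were mostly the higher ones, with a wide spread: the Eln+/+ groups touched nowhere but came close, and in Eln+/- aorta replicate 4 exceeded valve replicate 1. The differences, 0.96 ± 0.37 and 1.13 ± 0.37, did not pass (limma adjusted p = 0.309 and 0.0898), and without valve Eln+/+ replicate 1 the first was 0.58. The median ratio of this probe set is 0.921, below the 1 of most probe sets.

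**Figure D2:**
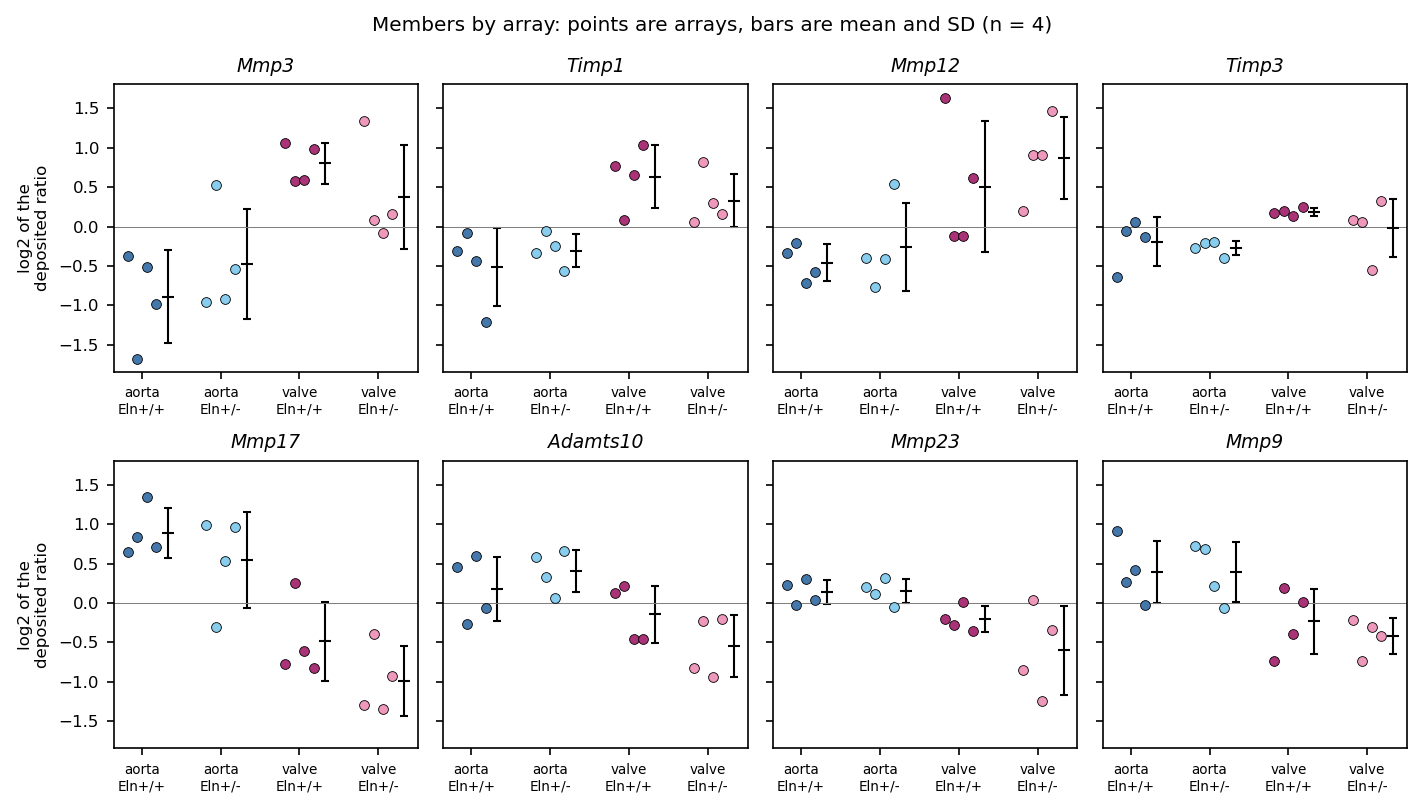
Log2 of the deposited ratio of 8 members on each array (points) with mean and SD of each group of 4 (bars). Mmp3, Timp1 and Mmp12 sit higher in the valve groups and Mmp17, Adamts10, Mmp23 and Mmp9 lower; Timp3 spans the narrowest range, with its 4 valve Eln+/+ points between 0.13 and 0.25.

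Mmp17, a membrane-type MMP held by a lipid anchor, was the member that passed the test as lower in the valve in both genotypes. Its log2 values (1448598_at) in Eln+/+ were 0.65, 0.84, 1.35 and 0.71 in the aorta and -0.77, 0.25, -0.61 and -0.82 in the valve. In Eln+/- they were 0.99, -0.31, 0.54 and 0.97 in the aorta and -1.30, -0.39, -1.34 and -0.93 in the valve. Neither genotype showed any overlap between the tissues, although aorta Eln+/- replicate 2, the array with the highest T cell marker mean, came within the range of valve Eln+/+. The valve was lower by a log2 difference of -1.38 ± 0.31 (SE) in Eln+/+, or 2.60-fold (limma adjusted p = 0.0479), and of -1.54 ± 0.31 in Eln+/-, or 2.91-fold (limma adjusted p = 0.00839). In Eln+/- the call held without each single array, with a limma adjusted p of at most 0.0350. In Eln+/+ it was lost without any 1 of the 4 Eln+/+ aorta arrays or without Eln+/+ valve replicates 1, 3 or 4, with differences of -1.46 to -1.22, and also without aorta Eln+/- replicates 1 or 3 or valve Eln+/- replicates 1, 3 or 4.

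Adamts10, a protease that associates with fibrillin microfibrils, was lower in the valve of Eln+/- mice with both probe sets. In Eln+/- the log2 values of 1441309_at were 0.58, 0.33, 0.06 and 0.66 in the aorta and -0.83, -0.22, -0.94 and -0.20 in the valve. All aorta arrays lay above 0 and all valve arrays below it. It fell by 0.96 ± 0.24 (SE) from aorta to valve, 1.94-fold (limma adjusted p = 0.0301), and the other probe set gave -0.70 ± 0.17 (limma adjusted p = 0.0276). In Eln+/+ the values were 0.45, -0.27, 0.60 and -0.06 in the aorta and 0.13, 0.21, -0.45 and -0.46 in the valve, and the overlapping groups differed by -0.32 ± 0.24 (limma adjusted p = 0.646). The other probe set, without overlap, differed by -0.38 there. Without aorta Eln+/- replicates 1 or 4 or valve Eln+/- replicates 1 or 3 the limma adjusted p in Eln+/- rose to between 0.0832 and 0.108.

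Mmp23, an MMP without the hemopexin domain of its relatives, had 1 probe set on each side of the threshold in Eln+/-. The one of higher SD (1417282_at) read 0.20, 0.12, 0.32 and -0.05 in the aorta and -0.85, 0.04, -1.25 and -0.34 in the valve. Valve replicate 2 lay among the aorta arrays, and the difference of -0.75 ± 0.22 did not pass (limma adjusted p = 0.0535). It passed without that valve array (-0.96, limma adjusted p = 0.00778), with array weights (-0.74, 0.0455) and as the mean of both probe sets (-0.77, 0.0142). The other probe set, 1417281_a_at, did not overlap between the tissues and passed with -0.80 ± 0.19 (limma adjusted p = 0.0212). In Eln+/+ the differences were -0.34 and -0.27, and neither passed.

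Mmp9, or gelatinase B, cleaves denatured collagen and elastin and is abundant in neutrophils. In Eln+/- it read 0.73, 0.69, 0.22 and -0.07 in the aorta and -0.22, -0.74, -0.31 and -0.42 in the valve (1416298_at). The tissues did not overlap, yet the difference of -0.81 ± 0.24 did not pass (limma adjusted p = 0.0617). It passed without aorta replicate 4 (-0.97, limma adjusted p = 0.0466), with array weights (-0.83, 0.0436) and as the mean of both probe sets (-0.71, 0.0196). In Eln+/+ it was 0.91, 0.27, 0.42 and -0.02 in the aorta and -0.73, 0.19, -0.40 and 0.02 in the valve, a difference of -0.63 ± 0.24 (limma adjusted p = 0.312). The neutrophil marker mean was 0.16 and 0.23 in the aorta groups and -0.12 and -0.013 in the valve groups, with 0 of its 8 measured genes past the threshold, and its part in the Mmp9 values was not tested.

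Smooth muscle markers were lower on average in the valve in 11 of 12 genes in each genotype. Their part in the tissue differences of the members was not tested. Of the 12 markers 5 passed as lower and 1 as higher in Eln+/- valve, and 0 as lower and 1 as higher in Eln+/+ valve. With the mean of the 12 markers as a covariate, chosen after seeing the data, 0 member probe sets passed in either genotype. Mmp17 was then lower by -0.99 in Eln+/+ (limma adjusted p = 0.0778) and -0.73 in Eln+/- (0.283), and Adamts10 by -0.58 in Eln+/- (0.446). Mmp3 and Timp1, higher in the Eln+/+ valve, differed by 1.46 (0.147) and 1.07 (0.140), so these calls were lost too. The marker mean itself differed between the tissues, so a fit with this covariate cannot tell smooth muscle content from tissue.

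None of the other TIMPs passed the test between tissues. Timp3, the inhibitor bound to the matrix, has 4 probe sets, and its values are given because all of them separated the tissues in Eln+/+, a choice made after they were seen. With 1419088_at the Eln+/+ aorta arrays read -0.65, -0.06, 0.06 and -0.13 and the valve arrays 0.17, 0.19, 0.13 and 0.25. The valve arrays were above all aorta arrays, and the differences of the 4 probe sets ran from 0.33 to 0.49 without passing (limma adjusted p from 0.182 to 0.421). In Eln+/- valve replicate 3 fell to -0.55 while the other valve arrays stayed between 0.06 and 0.32, and the differences were 0.08 to 0.25. Timp2, which helps Mmp14 activate proMmp2, differed between tissues by -0.12 to 0.11 over its 6 probe sets in Eln+/+ and by -0.54 to -0.13 in Eln+/-. Timp4, known for high expression in the heart, was lower in the valve pieces with both probe sets in Eln+/+, by -0.73 and -0.49, and by -0.25 and -0.01 in Eln+/-, and none of these differences passed.

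Among the remaining MMPs no tissue difference passed. The collagenases Mmp1a, Mmp1b, Mmp8 and Mmp13, which cut fibrillar collagen, differed by -0.18 to 0.66 in Eln+/+ and by -0.25 to 0.16 in Eln+/-. Mmp1a, Mmp1b and Mmp13 had a median ratio below 1 (0.457, 0.644 and 0.415), as did 12 of the 78 member probe sets, so that 0 is above the median of their log2 values. The gelatinase Mmp2 was higher in Eln+/+ valve by 0.41 and 0.44 with its 2 probe sets (limma adjusted p = 0.420 and 0.345). Mmp14, the membrane-type MMP that activates proMmp2, differed by -0.16 in Eln+/+ and -0.17 in Eln+/-, while its relatives Mmp16 and Mmp24 differed by -0.85 and -0.25 in Eln+/+ and by -0.45 and 0.28 in Eln+/-. The 4 probe sets of Mmp16 disagreed in sign in both genotypes. Mmp7, Mmp10, Mmp11, Mmp19 and Mmp20 lay between -0.36 and 0.23 in both. A further probe set gave the opposite sign for Mmp14 (0.11) and Mmp19 (0.40) in Eln+/+.

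The ADAMTS proteases other than Adamts10 had no probe set past the threshold between tissues. The hyalectanases, the 7 measured proteases that cleave aggrecan and versican (Adamts1, Adamts4, Adamts5, Adamts8, Adamts9, Adamts15 and Adamts20), differed by -0.31 to 0.38 in Eln+/+ and by -0.81 (Adamts5) to 0.43 in Eln+/-. Adamts3, a procollagen N-proteinase, differed by 0.16 in Eln+/+ and 0.21 in Eln+/-. Adamts7 and Adamts12, which cleave COMP, differed by -0.07 and 0.18 in Eln+/+ and by 0.07 and -0.41 in Eln+/-, where the further probe set of Adamts12 gave 0.33. Of Adamts6, Adamts16, Adamts18 and Adamts19 the values ran from -0.41 to 0.27 in Eln+/+ and from -0.87 (Adamts6) to 0.40 (Adamts19) in Eln+/-. The 5 ADAMTS-like genes ran from -0.01 to 0.30 in Eln+/+ and from -0.21 to 0.46 in Eln+/-. These ranges are of the probe sets of highest SD. Further probe sets gave the opposite sign for Adamts4 (0.30 in Eln+/+, -0.09 in Eln+/-) and Adamts16 (0.17 and 0.11). For Adamts9 they did so in Eln+/- (-0.18 and -0.20). In Eln+/+ some further probe sets of Adamts18, Adamtsl1 and Adamtsl5 also differed in sign, with 1 of Adamtsl1 at 0.54.

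More member probe sets separated the tissues than passed the test. In Eln+/+ the tissues separated in 11 of 78 probe sets (14.1%), against 7.68% of all probe sets. The valve was the higher tissue in 9 of the 11 (3.59% of all probe sets were), 4 of them of Timp3, and the lower one in 2 (4.09% of all). In Eln+/- they separated in 8 of 78 (10.3%), against 11% of all, with the valve higher in 1 (Timp1; 5.62% of all) and lower in 7 (5.42% of all). The median absolute tissue difference of the 78 member probe sets was 0.198 in Eln+/+ and 0.223 in Eln+/-, and that of all probe sets 0.18 and 0.20. For the 42 genes, each by its probe set of highest SD, it was 0.20 and 0.25, a choice not made for the background.

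**Figure D3:**
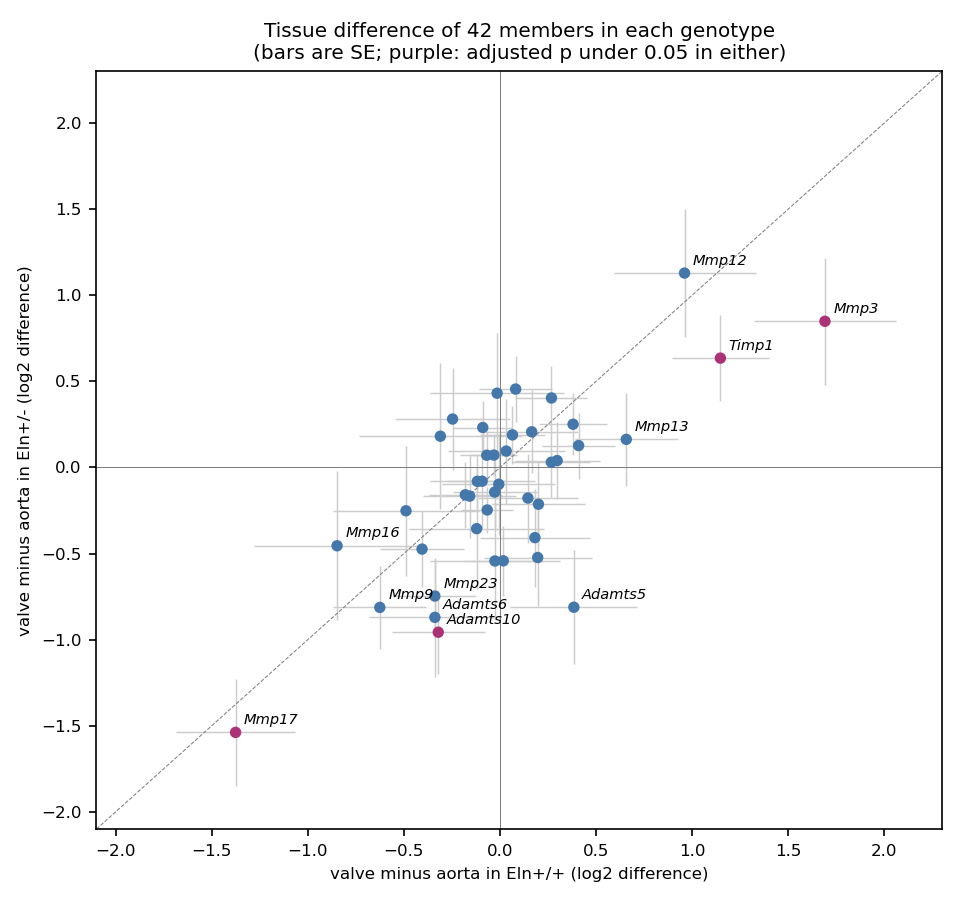
Log2 difference between valve and aorta of the 42 members in Eln+/+ (horizontal axis) and in Eln+/- (vertical axis), each point a gene with SE bars, purple where the adjusted p was under 0.05 in either, and the diagonal marking equal differences. Mmp17 lies at -1.38 and -1.54 near the diagonal, Mmp3 at 1.69 and 0.85 below it, and Adamts5 at 0.38 and -0.81 on opposite sides of 0.

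The tissue differences of the members mostly had the same direction in the 2 genotypes. The sign was the same in 30 of the 42 genes (71.4%), against 59.1% of all probe sets, and the differences correlated across the 42 genes with a Pearson r of 0.713 and a Spearman rho of 0.545, against a Pearson r of 0.638 over all probe sets. The 42 genes stand by their probe sets of highest SD and the background by all probe sets, so the 2 shares are not like for like. Genes are not independent replicates, and the 2 comparisons share no array.

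Comparing Eln+/- with Eln+/+ within a tissue asked whether 1 missing elastin allele goes with other levels of these genes. In the aorta 0 of the 78 member probe sets (0%) passed limma at an adjusted p under 0.05, as did 0% of all probe sets. At an unadjusted p under 0.05 there were 2 (2.56%), against 5.51% of all, 1 probe set of Adamts5 that was higher (2.96% of all were) and 1 of Timp4 that was lower (2.55% of all). In the valve the counts were 0 of 78 (0%), with 0% of all probe sets, and 3 (3.85%) unadjusted, against 8.6% of all. These 3, of Mmp16, Mmp23 and Timp2, were all lower in Eln+/-, as were 3.99% of all probe sets. The 4 probe sets of Mmp16 disagreed in sign, with differences from -0.82 to 0.23. The unadjusted shares over both directions were below the background.

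Adamts5, or aggrecanase 2, which cleaves aggrecan and versican and takes part in the remodelling of developing valves, had the lowest p of the 42 genes in the aorta. Its log2 values (1456969_at) were 0.04, -0.04, -0.46 and -0.11 in Eln+/+ and 0.30, 1.76, 0.38 and 0.26 in Eln+/-. The groups did not overlap, as in 1 of the 78 member probe sets (1.28%) and 2.84% of all (1.39% with Eln+/- higher). The difference of 0.82 ± 0.33 (SE) did not pass (limma adjusted p = 0.885), and without aorta Eln+/- replicate 2 it was 0.46 ± 0.27. The other 3 probe sets gave 0.26 to 0.38. The Timp4 probe set with an unadjusted p of 0.00827 was not its one of highest SD: it was at -0.84, and the latter at -0.53.

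Adamtsl2, Adamtsl3 and Adamts8 followed in the aorta, each higher on average in Eln+/-. Adamtsl2, a microfibril-binding protein, read -0.18, -0.26, 0.11 and -0.69 in Eln+/+ and 0.67, 0.38, -0.03 and -0.16 in Eln+/-, a difference of 0.46 ± 0.22 (limma adjusted p = 0.885). Adamtsl3 read -0.35, -0.98, 0.46 and -0.19 against 0.02, 0.67, -0.09 and 0.38, a difference of 0.51 ± 0.24 (limma adjusted p = 0.885). Adamts8 read -0.00, -0.76, 0.43 and -0.34 against 0.41, -0.56, 0.31 and 0.91, a difference of 0.44 ± 0.28 (limma adjusted p = 0.897). The genotypes overlapped in all 3 genes. Without aorta Eln+/+ replicate 2 Adamtsl3 was at 0.27 and Adamts8 at 0.24. Adamts8 was at 0.22 without aorta Eln+/- replicate 4 and at 0.71 without aorta Eln+/- replicate 2, and Adamtsl3 at 0.22 without both of these Eln+/- arrays. In the aorta 26 of the 42 genes were higher on average and 16 lower in Eln+/-, and the median difference was 0.05.

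**Figure D4:**
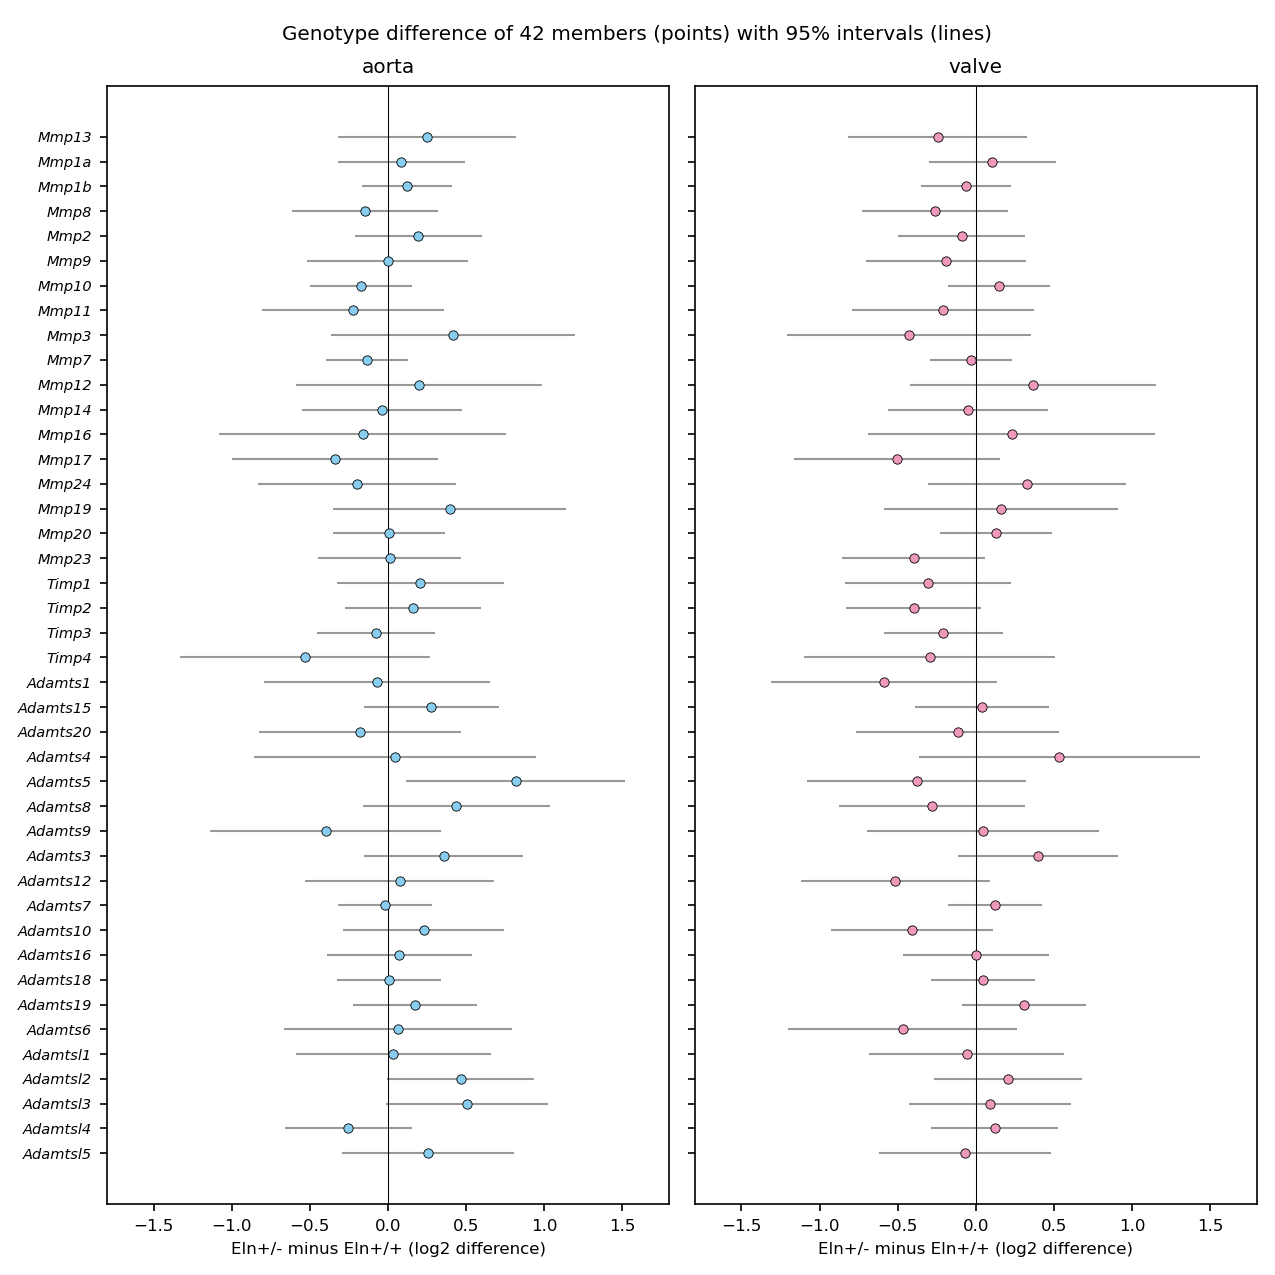
Log2 difference between Eln+/- and Eln+/+ of the 42 members in the aorta (left) and the valve (right), points with 95% intervals from the limma fit. The interval of Adamts5 in the aorta is the one that leaves out 0 in either panel, and all 4 Timp genes lie left of 0 in the valve.

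In the valve all 4 Timp genes were lower on average in Eln+/-, by -0.40 for Timp2, -0.30 for Timp1, -0.29 for Timp4 and -0.21 for Timp3, and none passed (lowest limma adjusted p = 0.607). All 13 Timp probe sets had this sign, also with arrays centred on their median and after quantile normalization. Of all 45037 probe sets 21670 had it, and the 13 come from 4 genes on the same arrays, so they are not independent. For Timp3 and Timp4 a low Eln+/- array made much of the difference in means. Timp3 (1419088_at) had medians of 0.18 in Eln+/+ and 0.073 in Eln+/-, where its lowest array was at -0.55. Timp4 (1450974_at) had medians of 0.025 and -0.029, and its lowest Eln+/- array was at -1.17. In the same comparison 9 of 10 fibroblast markers (median -0.35) and 7 of 7 mesothelium and epicardium markers (median -0.63) were lower on average, with 0 past the threshold, and their part in the TIMP values was not tested. The Timp2 arrays (1420924_at) read -0.05, 0.01, 0.05 and 0.09 in Eln+/+ and -0.06, -0.21, -0.78 and -0.45 in Eln+/-. All Eln+/- arrays were below all Eln+/+ arrays, the first by a narrow margin, and 1 further Timp2 probe set also separated the groups. In total 4 of the 78 member probe sets did (5.13%, 2 each of Adamts5 and Timp2), near the 5.04% of all probe sets, and each was lower in Eln+/-, as were 2.04% of all.

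Mmp23, Adamts12 and Adamts1 came next in the valve. Mmp23 read -0.20, -0.28, 0.02 and -0.36 in Eln+/+ and -0.85, 0.04, -1.25 and -0.34 in Eln+/-, a difference of -0.40 ± 0.22 (limma adjusted p = 0.631). Adamts12, which cleaves COMP, read 0.30, -0.45, 0.67 and -0.01 against -0.28, -0.28, -0.67 and -0.33, a difference of -0.52 ± 0.28 (limma adjusted p = 0.637). Its further probe set had the opposite sign, at 0.13. Adamts1, a versican-cleaving protease, read -0.73, 0.16, 0.61 and 0.08 against -0.24, -0.65, -1.50 and 0.17, a difference of -0.58 ± 0.34 (limma adjusted p = 0.659). In each gene the genotypes overlapped, and valve Eln+/- replicate 3 was the lowest of the 8 valve arrays. That array also had the highest cardiac muscle marker mean of the 16 arrays (2.27) and the lowest smooth muscle mean (-1.69). The part of tissue make-up in its values was not tested. Cardiac muscle markers were higher on average in the Eln+/- valve pieces in 16 of 16 genes and smooth muscle markers lower in 11 of 12, with 0 past the threshold in either list. With the cardiac mean as a covariate in the valve arrays, Mmp23 and Adamts1 changed sign, to 0.27 and 0.13, and Timp2 and Adamts12 were at -0.24 and -0.38. With the sex-linked signal as a covariate Timp2 was at -0.21 and Adamts12 at -0.29, and as means of each gene's probe sets they were at -0.22 and -0.19. Without valve Eln+/- replicate 3 Timp2 was at -0.26, Mmp23 at -0.18 and Adamts1 at -0.27, without valve Eln+/- replicate 2 Mmp23 was at -0.61, and without valve Eln+/+ replicate 3 Adamts12 was at -0.34.

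The genotype differences of the members in the 2 tissues showed no common direction: 22 of 42 genes (52.4%) had the same sign, against 47.7% of all probe sets, and Pearson r across the 42 genes was 0.015, against 0.047 over all probe sets. Here too the genes stand by their probe sets of highest SD and the background by all. These comparisons share no array.

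The interaction tested whether the genotype difference itself differed between valve and aorta. It passed for 0 of 78 member probe sets (0%) and 0% of all probe sets by limma, and had an unadjusted p under 0.05 for 6 (7.69%), against 7.72% of all. Those 6 were the 4 probe sets of Adamts5 and 1 each of Mmp16 and Timp2, all with the genotype difference lower in the valve, as in 3.62% of all probe sets. Adamts5 was higher in Eln+/- aorta with 4 of 4 probe sets and lower in Eln+/- valve with 4 of 4. The valve arrays of 1456969_at read 0.89, -0.27, 0.48 and -0.13 in Eln+/+ and -0.27, 0.48, -0.27 and -0.49 in Eln+/-, so the genotypes overlapped there. Its interaction was -1.20 ± 0.47 (limma adjusted p = 0.627), or -0.84 without aorta Eln+/- replicate 2, and the 4 probe sets ran from -1.20 to -0.67. The next were Timp2 (-0.56 ± 0.29, or -0.30 as the mean of its 6 probe sets), Adamts10 (-0.64 ± 0.34) and Adamts8 (-0.72 ± 0.40), with limma adjusted p from 0.668 to 0.682. In the aorta Timp2 read 0.02, -0.01, 0.39 and -0.38 in Eln+/+ and 0.63, 0.20, -0.31 and 0.15 in Eln+/-. The valve arrays of Adamts8 read 0.00, 0.05, 0.14 and -0.09 in Eln+/+ and 0.05, -0.02, -0.51 and -0.53 in Eln+/-. In both the genotypes overlapped, and the lower values of Adamts8 came from valve Eln+/- replicates 3 and 4.

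**Figure D5:**
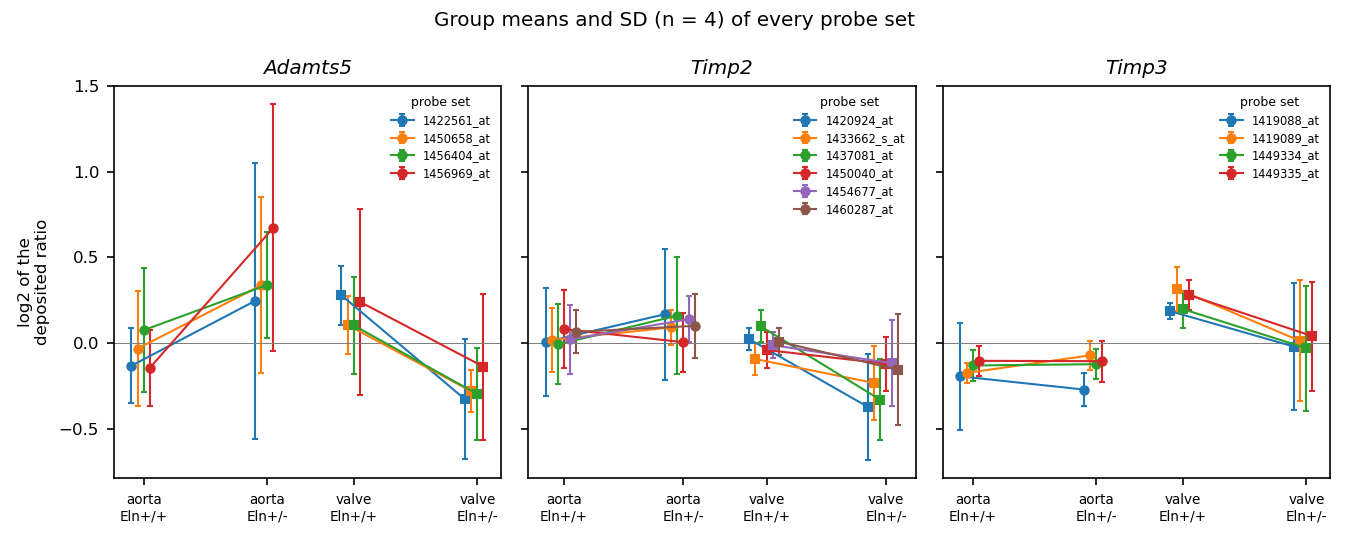
Group means and SD (n = 4) of the log2 ratio for every probe set of Adamts5, Timp2 and Timp3, with lines joining the 2 genotypes of a tissue. All 4 Adamts5 probe sets slope up in the aorta and down in the valve, the 6 of Timp2 slope down in the valve, and the 4 of Timp3 are higher in Eln+/+ valve than in Eln+/+ aorta.

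The wider protease system was read from a list of 50 genes for other proteases, activators, inhibitors and substrates, of which 47 were measured. Each is given by its probe set of highest SD, a choice not made for the shares of all probe sets, so these are not like for like. In Eln+/+ valve against aorta 3 of the 47 passed, all higher, where 0.946% of all probe sets passed: the cartilage matrix protein Comp (4.02), Thbs1 (2.98) and fibrillin 2, Fbn2 (2.61). In Eln+/- 10 passed, 5 higher and 5 lower, where 5.81% of all probe sets passed, 3.27% as higher and 2.54% as lower. The 6 of lowest p were Comp (3.83), Fbn2 (3.02) and Thbs2 (1.24), which were higher in the valve, and Pcolce2 (-1.02), an enhancer of procollagen C-proteinase, Adam33 (-1.75) and the serine protease Htra1 (-1.04), which were lower. Reck, a membrane-anchored inhibitor of MMPs, was singled out after its values were seen and fell by 0.72 from aorta to valve in Eln+/- (limma adjusted p = 0.0184). The 12 cartilage-type markers, Comp among them, averaged -0.92 and -0.87 in the aorta groups and 0.81 and 1.34 in the valve groups, with 6 and 9 of 12 past the threshold as higher. Their part in these differences was not tested. By limma 0 of the 47 passed in the genotype comparisons and the interaction, with a lowest adjusted p of 0.885 in the aorta, 0.543 in the valve and 0.631 for the interaction. At an unadjusted p under 0.05 there were 1, 1 and 2 of the 47 in these 3 comparisons, against 5.51%, 8.6% and 7.72% of all probe sets.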

How the data were processed

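Labelled cDNA of 16 specimens was hybridised to Affymetrix whole-genome mouse arrays and normalised with RMA, per the submitters' processing notes. The authors deposited linear ratios: a probe set's row median is 1 in 39827 of 45101 rows, below 1 in 5274 and above 1 in 0, so the division by a median was read from the values. Aligner and genome build are not given in the sources used here.

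Control probe sets (64) were left out. Log2 ratios of all 45037 others were fitted with limma 3.58.1 (R 4.3.3) as 4 group means over the 16 arrays, two-sided, with Benjamini-Hochberg adjustment and a threshold of 0.05. There were 12 residual and 3.60 prior degrees of freedom. The number of arrays, 4 a group, limits the precision, and p-values measure the spread between these specimens. The fit was tested on simulated data.

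A gene's values come from the probe set with its highest SD, since the table holds no level. Array values are given for genes past the threshold and for the 4 of lowest p in each comparison. From the list of the protease system up to 6 genes past the threshold are named in each comparison, in order of p. Members, lists and the rule were chosen with earlier results of these data known. Member symbols matched RefSeq in 42 of 42 cases. Alternatives were another log offset (0.1), filter, scaling, weights, prior, covariates, replicate blocks, fewer groups, and each array left out.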

Additional observations from a re-analysis of the deposited data

Results flagged for a closer look

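In 3 cases an array lay far from the other 3 of its group, among 60 groups of 4 arrays from 15 genes (Eln and the members of lowest p or past the threshold in a comparison). By chance about 1 in 20 groups, or 5%, is so marked. Adamts5 on aorta Eln+/- replicate 2 was at 1.76, with the other 3 arrays between 0.26 and 0.38. Eln on the same array was at -0.64, with the others between 0.0028 and 0.13. Adamts12 on valve Eln+/- replicate 3 was at -0.67, with the others between -0.33 and -0.28.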

How the results depend on the processing

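The counts of member probe sets past the threshold were 0 for genotype in the aorta, genotype in the valve and the interaction under every alternative run. For tissue in Eln+/+ the count of 3 became 1 with only the 2 groups compared, 1 with the sex-linked signal as a covariate and 0 with the smooth muscle mean as a covariate, and it ranged from 0 to 3 when each array was left out. It was 0 without aorta Eln+/+ replicates 1, 3 or 4, valve Eln+/+ replicates 1, 3 or 4 or valve Eln+/- replicate 4, and 1 without aorta Eln+/+ replicate 2, aorta Eln+/- replicates 1 or 3 or valve Eln+/- replicate 1. For tissue in Eln+/- the count of 4 became 2 with only the 2 groups compared, 1 without the pair aorta Eln+/- replicates 2 and 4 and 0 with the smooth muscle covariate. It ranged from 1 (without valve Eln+/- replicate 3) to 5 when each array was left out, with 2 without aorta Eln+/- replicate 1 or valve Eln+/- replicate 1. The cause was not tested. Single genes kept their direction under all alternatives run, except Mmp23 (0.27) and Adamts1 (0.13) in the valve genotype comparison with the cardiac covariate.

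Same-numbered arrays did not deviate together: the correlations of their deviations lay between -0.146 and 0.071, none over 0.1. This gave no sign of pairing by number, but cannot exclude that an aorta and a valve came from the same mouse. In Eln+/+ mice replicates 2 and 4 each had opposite sex-linked signals in aorta and valve. With the replicate number as a block, 0 member probe sets passed for tissue in Eln+/+ and 3 in Eln+/-. With genotype and number together as the block the counts were 0 and 2.

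Values near 0 have no firm direction: centring or quantile normalization turned the sign of 1 to 6 of the 78 member probe sets in each comparison, all with differences under 0.07 in size. The table keeps no signal over background. Probe sets with a median ratio below 1, whose divisor is not stated, include 12 of the members (among them Mmp12 and Mmp13), and leaving such probe sets out was the one filter available.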
